A study of Mus musculus with 2 samples.

Results

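The 10 genes examined here are used as markers of stromal, mesenchymal and progenitor cells, and RUNX2 CUT&Tag peaks around them were counted in MC3T3-E1 cells. They are Thy1, Nt5e, Ly6a, Pdgfra, Pdgfrb, Eng, Mcam, Cdh2, Cdh11 and S100a4. The genes were chosen by name, with earlier results of these data known, and their positions were taken from RefSeq (GRCm38), where all 10 were found among 21887 protein-coding genes on chromosomes 1 to 19, X and Y. MC3T3-E1 is an established line of osteoblast precursors from mouse. In CUT&Tag, an antibody, here against RUNX2, brings the transposase Tn5 to chromatin, which is cut and tagged where the protein sits. The series holds 1 group of untreated cells with 2 replicate libraries and no library of another genotype, treatment or antibody. The replicate 1 list holds 26853 peaks and the replicate 2 list 27287, with positions and widths and no heights, so the read depth is unknown. Peaks of both lists that shared at least 1 bp were joined into a shared region. A region was counted for a gene where any base lay in the gene or within 50 kb of either end, here called the window. Whether the replicates came from different cultures is not stated in the labels. The lists show where peaks were called and not how strongly a gene was expressed, so the marker status of these genes in the cells was not tested.

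RUNX2 is the Runt-family transcription factor that osteoblast precursors need to become osteoblasts, and it binds DNA through a short core motif together with its partner CBFB. Most of the marker proteins are displayed on the cell surface, as anchored proteins, growth factor receptors or adhesion molecules. Such surface proteins are used to isolate the stromal cells from which osteoblasts, adipocytes and chondrocytes arise. S100A4 differs in being a calcium-binding protein inside the cell that can also be secreted.

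Of the markers, 9 had a shared region in the window, and Ly6a had none. The 9 of 10 stand beside 69.9% of all protein-coding genes under the same rule. Longer genes have longer windows, so the share was also taken by gene length. Under 10 kb it was 3 of 4 markers beside 56.5% of all genes of that length. From 10 to 50 kb it was 4 of 4 beside 78.1%, and from 100 kb upwards 2 of 2 beside 73.9%. The windows held 31 shared regions, of which 11 lay at Eng, 4 each at Pdgfrb and S100a4, 3 each at Thy1 and Nt5e, 2 each at Cdh2 and Cdh11 and 1 each at Pdgfra and Mcam. The median over the 10 genes was 2.5 regions, and over all protein-coding genes it was 2 (quartiles 0 and 3). Per 100 kb of window the medians were 1.5 and 0.98. Eng was the member far from the others, with 8.08 regions per 100 kb, and 99.77% of protein-coding genes had a lower density. Next came S100a4 with 3.91, Pdgfrb with 2.86 and Thy1 with 2.85, while Cdh2 had 0.62 over its 320.4 kb window.

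**Figure D1:**
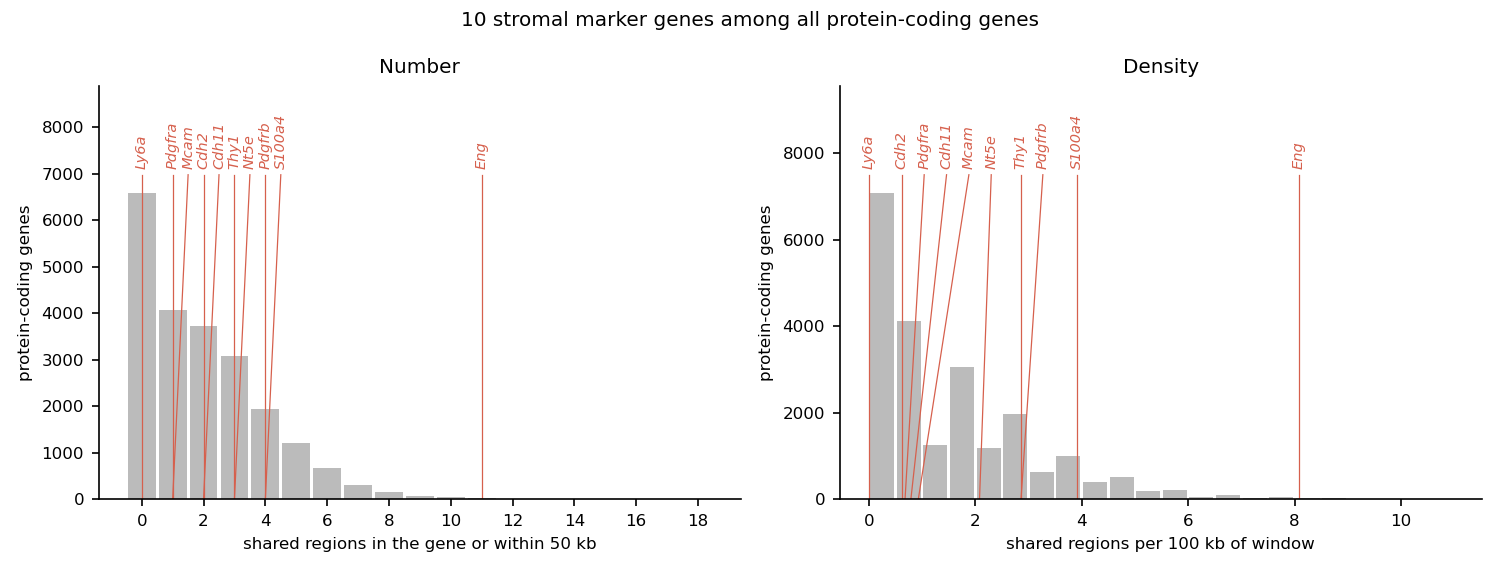
Number (left) and density per 100 kb of window (right) of shared regions for all 21887 protein-coding genes (grey bars), with red lines leading from the value of each marker gene to its name. Eng stands at 11 regions and 8.08 per 100 kb, Ly6a at 0, and the other 8 genes lie between 1 and 4 regions.

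Fewer of these regions touched the markers themselves. Shared regions touched 7 of 10 genes (Pdgfra, Pdgfrb, Eng, Nt5e, Cdh2, Cdh11 and S100a4), beside 41.4% of all protein-coding genes. Long genes are touched more often, and the markers had a median length of 38008 bp against 17169 bp over all genes. Among genes under 10 kb, 1 of 4 markers was touched (S100a4, but not Thy1, Mcam or Ly6a) beside 23.4% of all genes of that length. From 10 to 50 kb it was 4 of 4 beside 47.4%, and from 100 kb upwards 2 of 2 beside 61.1%. An end of the gene had a region within 1 kb at 3 of 10 markers (S100a4, Pdgfrb and Nt5e), a share near the 33.3% of all genes. Of the 31 regions, 12 touched the marker, 6 lay up to 10 kb outside it and 13 farther out. For 17 of the 31 (54.8%, 95% Wilson interval 37.8 to 70.8, counting error only) another protein-coding gene was nearer than the marker. The interval treats regions as independent, although 11 of the 31 lay in the Eng window. Of those 11, only 2 had Eng as the nearest protein-coding gene, so this share rests largely on Eng. With a limit of 10 kb beyond either end, 8 of 10 markers had a region, beside 52.8% of all genes, with Mcam dropping out. At any distance, 8 of 10 were the nearest protein-coding gene of at least 1 shared region, all but Mcam and Ly6a, beside 48.7%.

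**Figure D2:**
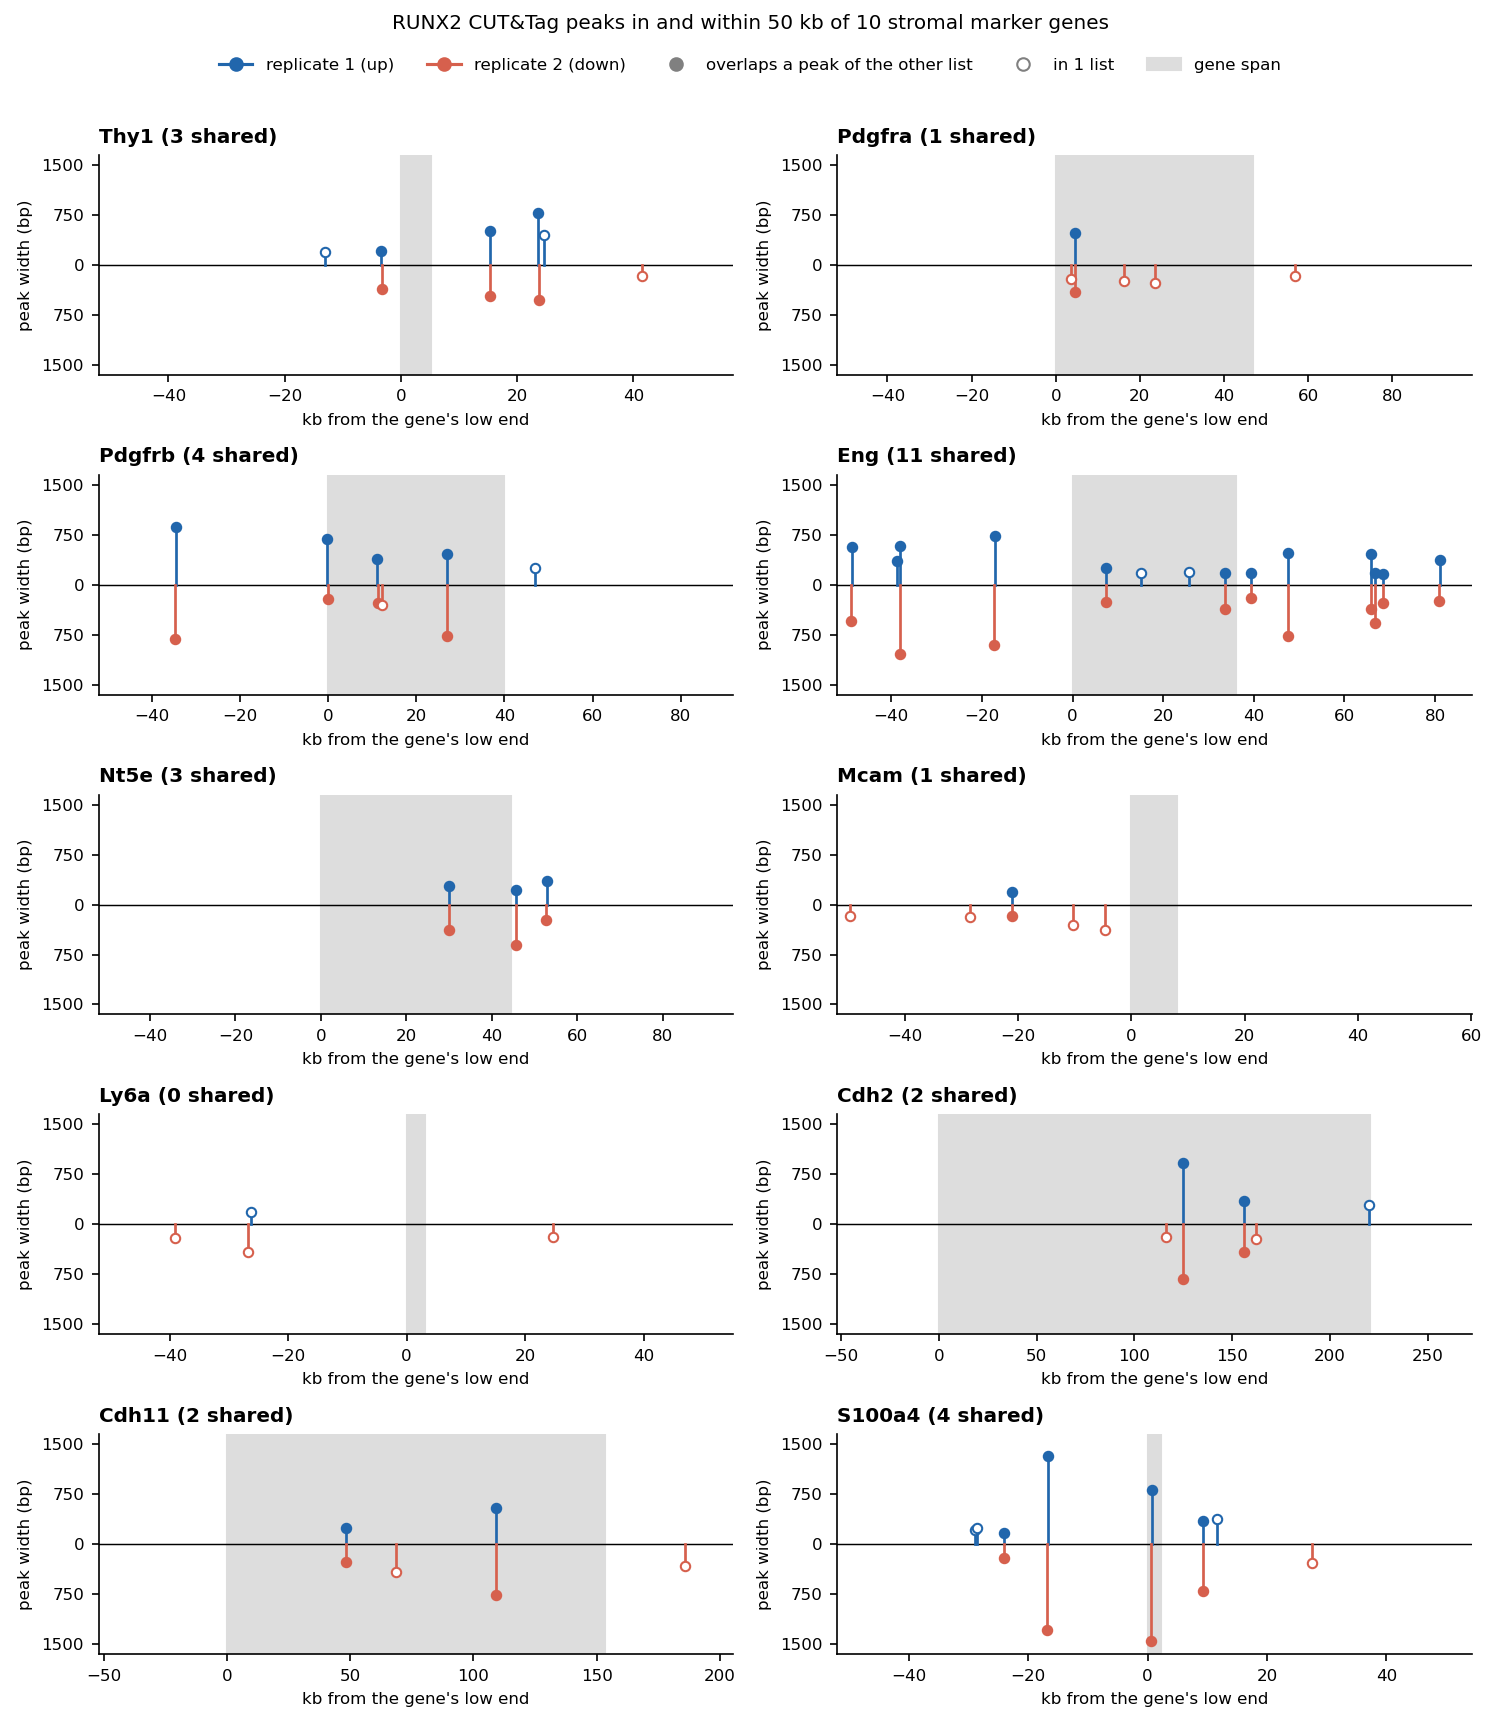
Peaks in each window, by distance of the peak midpoint from the gene's low end (the lower genome coordinate) in kb; replicate 1 points up and replicate 2 down, the height is the peak width in bp, filled circles overlap a peak of the other list, and grey marks the gene. At Cdh2, Cdh11 and Pdgfra the shared peaks all lie within the grey span, whereas most of the 11 regions at Eng lie outside it.

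S100a4 carried the widest peak over an end of any of the 10 genes. The gene lies on chromosome 3 from 90603770 to 90606045, inside a cluster of S100 genes, and is 2276 bp long. Replicate 1 had 7 peaks in the window and replicate 2 had 5 (mean 6.0 ± 1.41, SD, n = 2), which formed 4 shared regions. The region across the start of the gene (chromosome 3, 90603589 to 90605046) had a width of 815 bp in replicate 1 against 1458 bp in replicate 2, wider than 90.5% and 99.6% of the peaks of those lists. The replicates differed in where this peak began. In replicate 2 it ran from 181 bp before the start to 1276 bp after it, and in replicate 1 from 368 to 1182 bp after it. The promoter of the RefSeq table (GRCm38.p6, 250 bases before the start and 50 after, plus strand, chr3:90603520-90603819) was therefore covered over 231 bases by replicate 2 and not by replicate 1. It is printed here to show that reach, with the bases inside the replicate 2 peak in capitals.
S100a4: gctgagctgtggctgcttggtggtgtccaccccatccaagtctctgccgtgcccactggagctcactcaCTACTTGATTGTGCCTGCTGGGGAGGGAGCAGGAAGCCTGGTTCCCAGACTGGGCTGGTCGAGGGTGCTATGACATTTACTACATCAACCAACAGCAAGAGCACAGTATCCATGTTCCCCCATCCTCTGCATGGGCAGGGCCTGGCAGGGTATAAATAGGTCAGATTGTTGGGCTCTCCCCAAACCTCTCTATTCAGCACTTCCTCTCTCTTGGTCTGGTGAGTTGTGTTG

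The other shared regions of the S100a4 window lay at its neighbours. The widest of these, with 1328 and 1289 bp (chromosome 3, 90586283 to 90587842), lay inside S100a3 and covered all 300 bases of the S100a3 promoter in both lists, 15.93 kb from S100a4. Another, of 346 and 706 bp, lay 6.67 kb above S100a4 across the start of S100a6, which encodes a further calcium-binding S100 protein. The fourth was narrow, at 164 and 209 bp, and lay inside S100a3, 23.88 kb away. A further 3 peaks of replicate 1 and 1 of replicate 2 had no counterpart.

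Motif letters were looked for in promoters alone, since sequences of the shared regions themselves were not at hand. Of the 10 markers, the RefSeq promoter table held Pdgfra, Eng, Nt5e, Mcam and S100a4, and none of these 5 promoters held the RUNX core (TGTGGT or TGCGGT), the AP-1 site TGACTCA or the TEAD site GGAATG on either strand. The promoters of Pdgfra, Eng, Nt5e and Mcam had no base under a peak of either list, and that of S100a4 only under replicate 2. The absence of these letters therefore says nothing of the shared regions inside or around these genes. Among all 32851 promoters of 300 bases, 16.8% held TGTGGT, 6.45% TGCGGT, 5.20% TGACTCA and 14.7% GGAATG. In the 7492 promoters touched by a shared region, TGTGGT was in 12.55% and TGCGGT in 11.4%, the former below and the latter above its share in all promoters. Either RUNX core was in 22.8% of them beside 22.4% of all promoters. Among promoters in that table, 6 of neighbouring genes in the windows were touched by peaks of both replicates, and 3 of them held a RUNX core. The 6 were those of Ak1, Cdk9, Fpgs, S100a3, S100a6 and Sh2d3c. Promoters outside the table could not be searched, among them that of Pdgfrb, whose low end a shared region crossed. These 3 are printed, with the core in capitals on whichever strand it lies. Of the promoters searched in the marker windows, they are those where peaks and the core letters met. The S100a6 promoter (chr3:90612644-90612943, plus strand) held TGTGGT 3 times, of which 2 lay inside the replicate 2 peak and none lay wholly inside the replicate 1 peak. Those of Ak1 (chr2:32629250-32629549, plus strand) and Fpgs (chr2:32694126-32694425, minus strand), both in the Eng window, held 1 core each, inside the peaks of both replicates.
S100a6: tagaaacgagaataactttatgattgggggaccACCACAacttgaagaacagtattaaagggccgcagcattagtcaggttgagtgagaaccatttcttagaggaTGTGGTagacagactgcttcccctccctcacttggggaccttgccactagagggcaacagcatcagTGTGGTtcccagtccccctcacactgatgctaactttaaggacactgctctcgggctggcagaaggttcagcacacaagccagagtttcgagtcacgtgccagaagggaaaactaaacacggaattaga
Ak1: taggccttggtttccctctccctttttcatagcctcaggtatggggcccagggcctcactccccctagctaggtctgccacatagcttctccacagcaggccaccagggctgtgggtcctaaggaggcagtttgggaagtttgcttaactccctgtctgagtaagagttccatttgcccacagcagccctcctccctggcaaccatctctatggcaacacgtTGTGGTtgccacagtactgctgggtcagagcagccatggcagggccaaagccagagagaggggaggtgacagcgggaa
Fpgs: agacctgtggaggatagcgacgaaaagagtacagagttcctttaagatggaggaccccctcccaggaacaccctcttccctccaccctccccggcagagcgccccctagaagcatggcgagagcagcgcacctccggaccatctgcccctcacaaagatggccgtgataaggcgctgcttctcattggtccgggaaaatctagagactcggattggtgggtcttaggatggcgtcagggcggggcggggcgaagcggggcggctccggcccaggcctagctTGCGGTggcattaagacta

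Among the receptors, Pdgfrb had peaks at its end and inside the gene, and Pdgfra inside the gene. Pdgfrb encodes the PDGF receptor beta chain of pericytes and stromal cells and lies on chromosome 18 from 61045127 to 61085067. Each replicate had 5 peaks in its window, and 4 shared regions resulted. One crossed the low end of Pdgfrb (61044639 to 61045319), where the gene Gm52351 also ends, with a peak of 681 bp in replicate 1 and 215 bp in replicate 2. Another 2 lay inside the gene, 10.91 and 12.55 kb from its nearer end. Their peaks were 388 and 268 bp wide in the former and 456 and 767 bp in the latter, replicate 1 given before replicate 2. The remaining region, of 870 and 810 bp, lay 34.13 kb away inside the amino acid transporter gene Slc6a7. Its peaks coincided most closely of all regions in the windows, with an overlap of 93.1% of their joint length.

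Pdgfra, which encodes the PDGF receptor alpha chain of mesenchymal progenitors, lies on chromosome 5 from 75151322 to 75198206. Replicate 1 placed 1 peak in its window and replicate 2 placed 5 (mean 3.0 ± 2.83, SD, n = 2). The 1 shared region (75155741 to 75156243) lay inside the gene, from 3490 bp after the start of the promoter table onwards, with widths of 474 and 399 bp. The 4 other peaks of replicate 2 were 167 to 277 bp wide, and 3 of them also lay inside the gene. The nearest of these was 742 bp from a peak of replicate 1. No other protein-coding gene lay in the window.

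Eng, which encodes endoglin, a coreceptor for TGF-beta family ligands, had the most shared regions, and most of them lay at other genes. It lies on chromosome 2 from 32646595 to 32682669, with 7 other protein-coding genes in the window against a median of 3 over all genes. Replicate 1 had 14 peaks there and replicate 2 had 11 (mean 12.5 ± 2.12, SD, n = 2), and all but 2 of replicate 1 overlapped. Within Eng lay 2 regions, one 7.32 kb from the low end, which is the start of the gene, with widths of 256 and 253 bp, and one 2.31 kb from the high end with widths of 172 and 357 bp. Of the replicate 1 list, 24.3% and 2.8% of the peaks were narrower than these, and of the replicate 2 list 24.6% and 44.0%. Another region, of 178 and 195 bp, lay 3.25 kb above the gene, inside Fpgs. The widest regions of the window lay below Eng, at 37.65 kb inside the sialyltransferase gene St6galnac6 (582 and 1043 bp) and at 16.80 kb inside the adenylate kinase gene Ak1 (738 and 904 bp). Above Eng, a region of 475 and 771 bp covered the promoter of Fpgs, a folate enzyme gene, and 3 regions lay within 2258 bp of Cdk9, which encodes a kinase of transcription elongation. The promoter of Eng itself was 7.27 kb from the nearest shared region.

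Of the proteins held by a lipid anchor, Thy1 and Nt5e had shared regions nearby and Ly6a did not. Thy1, which encodes CD90, lies on chromosome 9 from 44043384 to 44048579. It had 5 peaks in replicate 1 and 4 in replicate 2, and no region touched it. The nearest shared region (44039905 to 44040261) lay 3.12 kb below its low end, with peaks of 210 and 356 bp. The other regions, at 9.83 and 18.03 kb above the high end, were nearer to the deubiquitinase gene Usp2, and the farther one (779 and 519 bp) crossed an end of that gene.

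Nt5e encodes CD73, the enzyme that makes adenosine outside the cell, and lies on chromosome 9 from 88327609 to 88372089. Each replicate had 3 peaks in its window, and all of them were shared. One region lay inside the gene, 14.37 kb from the high end (280 and 381 bp). Another lay 947 bp beyond the high end, with 218 bp in replicate 1 and 613 bp in replicate 2. The third (358 and 227 bp) lay 8.10 kb beyond it, inside the sorting nexin gene Snx14. The start of Nt5e is its low end in the promoter table, so these regions all lay in the later part of the gene or beyond it, and the promoter was 29.67 kb from the nearest.

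Ly6a encodes SCA-1, a marker of mouse progenitor cells, and lies on chromosome 15 from 74994877 to 74998031 in a cluster of Ly6 genes. Replicate 1 had 1 peak in the window, of 192 bp, and replicate 2 had 3, of 205, 420 and 192 bp. None overlapped. The replicate 1 peak and the 420 bp peak of replicate 2 lay 125 bp apart, 26.2 and 26.6 kb below Ly6a and nearer to Ly6e. The nearest shared region was 88.7 kb from Ly6a. A stretch without a called peak can still hold signal below the calling limit.

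The adhesion genes fell into Mcam, with a region at another gene, and the cadherins, with regions deep inside the gene. Mcam encodes CD146, an adhesion molecule of pericytes and endothelial cells, and lies on chromosome 9 from 44134658 to 44142727, 86.1 kb from Thy1, so that 13.9 kb of both windows is the same sequence. Here too replicate 1 had 1 peak and replicate 2 had 5 (mean 3.0 ± 2.83, SD, n = 2). The shared region, of 193 and 173 bp, lay 20.94 kb below the gene and 365 bp from Rnf26, and its peaks overlapped over 20.8% of their joint length, the least in the windows. The peaks nearest to the start of Mcam were 386 and 302 bp wide, 4496 and 10120 bp before it, and were called in replicate 2 alone. One peak of replicate 2 in the window was also counted for Thy1.

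Cdh2 encodes N-cadherin and Cdh11 encodes osteoblast cadherin, adhesion molecules of mesenchymal cells and osteoblasts. Neither window held another protein-coding gene. Cdh2, on chromosome 18 from 16588877 to 16809246, had 3 peaks in replicate 1 and 4 in replicate 2. Its shared regions lay 95 and 63.91 kb from the high end, inside the gene. The farther one was wide in both lists, at 919 and 814 bp, and the nearer one had 353 and 418 bp. A peak of 290 bp, 259 bp inside the high end of Cdh2, was found in replicate 1 alone, 57.71 kb from any replicate 2 peak.

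Cdh11, on chromosome 8 from 102632095 to 102785493, had 2 peaks in replicate 1 and 4 in replicate 2. One shared region, 43.79 kb inside the high end, had peaks of 544 and 769 bp, and the other, 48.20 kb inside the low end, had 237 and 271 bp. Beyond the window, Cdh11 was the nearest protein-coding gene of 5 more shared regions, from 115.2 to 628.1 kb above it. Cdh2 was nearest to 1 more (79.8 kb), Nt5e to 3 (up to 235.0 kb) and Thy1 to 2 (up to 97.2 kb), and the other markers to none. Long non-coding RNA genes were not counted in this.

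The overlap between replicates at the markers was near that over the whole lists. The windows held 42 peaks of replicate 1 and 48 of replicate 2, counting each peak once. Of these, 32 (76.2%, 95% Wilson interval 61.5 to 86.5) and 31 (64.6%, 50.4 to 76.6) overlapped the other list, beside 68.2% and 67.2% of all peaks. The intervals show counting error only and treat peaks as independent, although the Eng window held 12 of the 32 and 11 of the 31. Unshared peaks were narrow, with medians of 225 bp in replicate 1 and 241 bp in replicate 2 and a maximum of 456 and 420 bp. Shared peaks had medians of 382 and 418 bp, below the 488 and 493 bp of all shared peaks in the lists. The 30 regions made of 1 peak from each list had a median overlap of 61.6% of the joint length and a median distance of 74.75 bp between midpoints, beside 64.6% and 77 bp over all 17758 such regions. Pdgfra and Mcam differed most between the lists, with 4 unshared peaks of replicate 2 each and none of replicate 1.

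**Figure D3:**
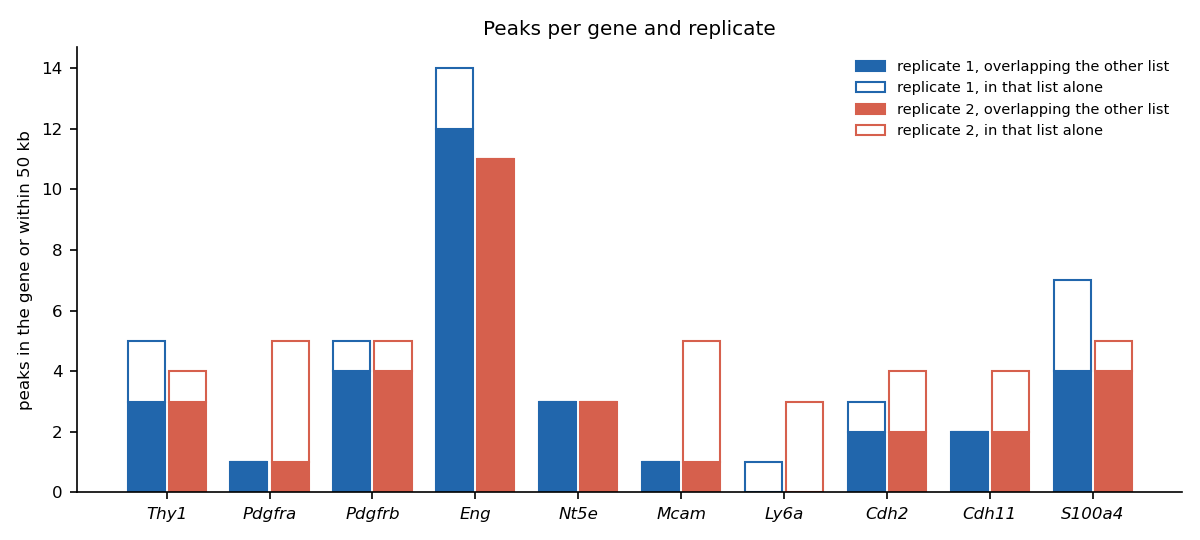
Number of peaks in each gene's window, for replicate 1 (blue) and replicate 2 (red); the filled part overlaps a peak of the other list and the open part does not. Nt5e has no open part in either replicate, Ly6a has no filled part, and the open part at Pdgfra and Mcam is 4 peaks of replicate 2.

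**Figure D4:**
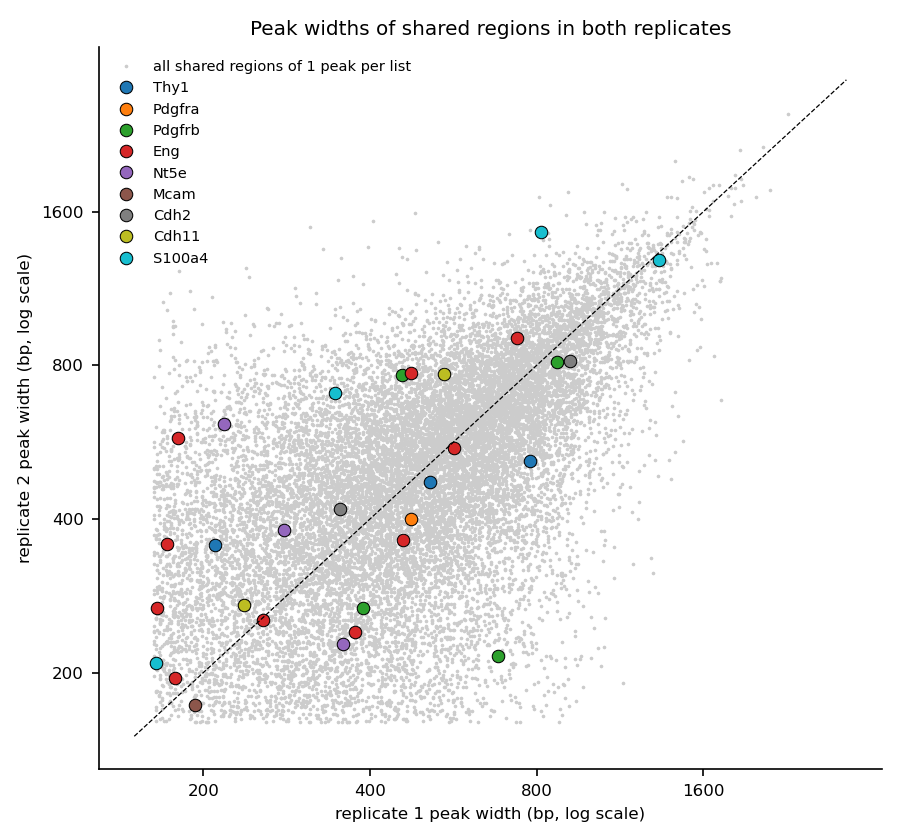
Peak width in replicate 1 against replicate 2, both in bp on log scales, for the 30 regions of the marker windows made of 1 peak per list (coloured by gene) over all 17758 such regions (grey), with the line of equal width dashed. The S100a4 window holds the points at 815 and 1458 bp and at 1328 and 1289 bp, and the Pdgfrb end region lies far below the line at 681 and 215 bp.

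Other stromal and progenitor markers ranged from 0 to 9 shared regions in the window. Of 20 such genes, 15 had a region there, beside the 69.9% of all protein-coding genes. Regions touched 9 of them (beside 41.4% of all genes), and 4 had one within 1 kb of an end (beside 33.3%). Their median was 3 regions in the window, against 2 over all genes. Cd9, a tetraspanin gene, had 9 regions, the hyaluronan receptor gene Cd44 had 6, and the smooth muscle actin gene Acta2 and the limb mesenchyme factor gene Prrx1 had 5 each. The 5 genes without one were Alcam, Ngfr, Cxcl12, Kit and Cd200, which were chosen for naming after their values were seen. Kit, which lies on the same chromosome as Pdgfra and encodes a related receptor, had no peak of either replicate in its window.

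Among partners of the markers, all 4 PDGF ligand genes had a region in the window, beside 69.9% of all protein-coding genes. There were 4 at Pdgfc, 2 at Pdgfd and 1 each at Pdgfa and Pdgfb. That of Pdgfb was at most 1 kb from an end of Pdgfb. Per 100 kb of window the ligand genes had 1.44, 0.43, 0.80 and 0.78 in that order, beside a median of 0.98 over all genes. Of 4 catenin genes, whose products link cadherins to actin, Ctnnd1 had 4 regions, Jup 3, Ctnna1 1 and Ctnnb1 none. Of 9 other cadherin genes, 5 had a region in the window (beside 69.9% of all protein-coding genes) and 4 were touched (beside 41.4%). Cdh1 led with 5 regions, before Cdh3 with 3, Cdh13 with 2 and Cdh15 and Cdh5 with 1 each. Cdh13 is 1184.9 kb long, so its regions came to 0.16 per 100 kb of window. The region of Cdh5 touched the gene and that of Cdh15 lay 39.0 kb away. None of the 9 had one within 1 kb of an end, beside 33.3% of all protein-coding genes.

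Markers of other lineages also had shared regions in windows of this size. A region lay in the window of 3 of 5 blood and immune, 5 of 5 endothelial, 5 of 5 epithelial and 5 of 6 osteoblast lineage genes. The share over all protein-coding genes was 69.9%. The windows of the epithelial keratin genes overlapped, and Cdh1 and Cdh5 were also counted among the other cadherins, so these counts are not independent. Regions touched 0, 3, 1 and 1 of the listed genes, beside 41.4% of all protein-coding genes. The endothelial genes touched were Pecam1, Cdh5 and Tek, and the osteoblast gene touched was Runx2, all 7 of whose regions touched the gene. Runx2 and Tek are 318.8 and 135.9 kb long, and 61.1% of all genes of 100 kb or more were touched. Per 100 kb of window Runx2 had 1.67 regions. The differences between these lists and the markers were not tested.

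**Figure D5:**
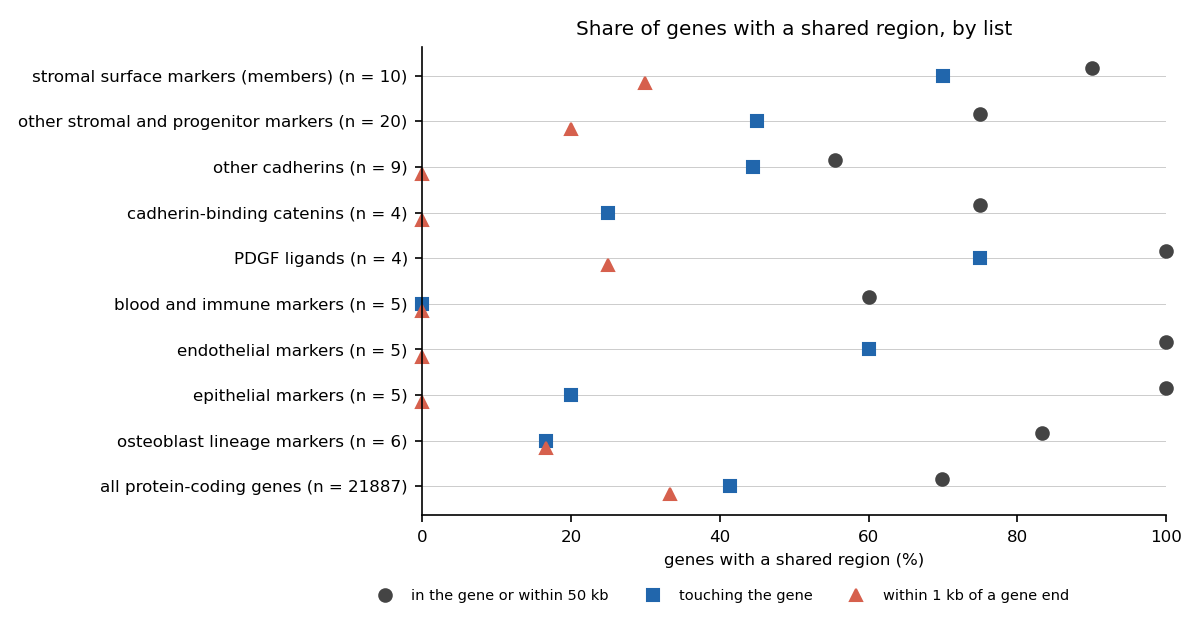
Percent of genes in each list with a shared region in the gene or within 50 kb (circles), touching the gene (squares) or within 1 kb of a gene end (triangles), with the number of genes in brackets. The 10 markers stand at 90%, 70% and 30%, and all protein-coding genes at 69.9%, 41.4% and 33.3%.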

How the data were processed

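The authors deposited 1 peak list per replicate, and these hold position and width in bp with no score, height, summit or p-value. Per the submitters' processing notes the tools include fastp 0.19.6, Bowtie2 and deepTools and the build is GRCm38 (mm10). The peak caller, with its threshold and control, was not given in the sources used here. Both ends of a peak were read as included, since width equals end minus start plus 1.

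Overlaps were computed with Python 3.11.15 and equal those of bedtools 2.31.1. Gene spans and promoters came from RefSeq (GRCm38.p6), without exons. With 1 group and no control, no contrast could be tested, and each count is set beside all 21887 protein-coding genes. The genes and lists were chosen with earlier results of these data known. Named are the 10 markers, the genes nearest to their shared regions, the 4 genes with most regions in each list of more than 4 of the markers' wider group, and all genes of shorter lists; lineage genes that were touched were named after their values were seen. Tested on simulated data, the counting recovered the planted number of regions for 21887 of 21887 genes. Each simulated gene stood alone, with planted pairs that always overlapped and lay apart from other peaks. Joined peaks, close peaks that do not overlap and windows shared by genes were therefore not tried. The alternatives were a reciprocal overlap of at least 50%, wide peaks, midpoints, each replicate alone, other distances and nearest genes. A gap of up to 500 bp was added after seeing the data.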

Additional observations from a re-analysis of the deposited data

How the results depend on the processing

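The number of markers with a shared region, 9, ranged from 7 to 10 over the alternatives, beside 41.4% to 77.7% of protein-coding genes. With the peaks of 1 replicate alone it was 10 (beside 75.6% and 76.1% of protein-coding genes), since Ly6a had unshared peaks in both lists, and with a gap of up to 500 bp, chosen after seeing the data, it was also 10 (beside 70.7%). The 31 regions fell to 22 with a reciprocal overlap of at least 50% and to 13 with only peaks at least as wide as the median of their list. They fell to 12 where only regions touching the genes were counted and to 18 within 10 kb. Without replicate 1 or replicate 2 the windows held 42 to 48 peaks. The 3 markers with a region within 1 kb of an end (beside 33.3% of all genes) fell to 1 with a reciprocal overlap of at least 50% (beside 26.9%) and to 1 with wide peaks (beside 21.1%). With either replicate left out the count was 3 (beside 38.3% and 38.1%), but in replicate 1 alone Cdh2 took the place of Nt5e, whose nearest peak lay 1050 bp from its end. The cause was not tested beyond the construction of each alternative. No paired analysis was possible because there is 1 group. Depth is unknown, so an absent peak cannot be told apart from signal under the calling limit.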

Other observations

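Cxcl12, a chemokine gene of bone marrow stroma in the list of other stromal markers, had no shared region within 50 kb, yet it was the nearest protein-coding gene of 11 shared regions, from 86.6 to 284.1 kb above its high end. The widest of them (chromosome 6, 117465467 to 117466845) had peaks of 393 bp in replicate 1 and 1375 bp in replicate 2. Cxcl12 and these values were chosen after the data were seen, and position alone does not link these regions to the gene.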
